A study of Mus musculus with 4 samples.

Results

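The nuclear genes of mitochondrial oxidative phosphorylation code for most subunits of 5 protein complexes in the inner mitochondrial membrane. Members were the array probes, other than controls, whose gene name begins with Ndufa, Ndufb, Ndufc, Ndufs or Ndufv (complex I), Sdha to Sdhd (complex II), Uqcr (complex III), Cox4 to Cox8 (complex IV) or Atp5 (complex V). This gave 113 probes for 82 genes, of 41174 probes in all. A filter on dim probes kept 105 of the 113, for 79 genes, among 24850 probes tested. The name rule also took in 3 genes that are no subunits. They are Ndufaf1, an assembly factor counted with complex I (1 probe), Cox4nb, a neighbour of Cox4i1 counted with complex IV (2 probes), and Atp5s, coupling factor B counted with complex V (2 probes).

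Prostates were taken at 60 days from mice whose strain was mixed C57BL/6:129/SVJae:FVB. The 2 mutant mice were Rb1R654W/F:Trp53F/F:PB-cre4, with 1 Rb1 allele coding for the R654W protein over a conditional allele. The 2 null mice were Rb1F/F:Trp53F/F:PB-Cre4, with both Rb1 alleles conditional. All 4 mice shared conditional Trp53 and the Cre transgene, which the probasin promoter drives in prostate epithelium, so deletion is limited to cells that make Cre while RNA came from the whole tissue. Each of 4 arrays carried 1 mouse in red against a pool of 3 wild-type mice in green, with no dye swap. In whole tissue, a different share of cells and a different amount of RNA per cell cannot be told apart, and against the pool a dye effect on a probe cannot be told apart from genotype.

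Complex I takes electrons from NADH and complex II takes them from succinate, complex III passes them to cytochrome c, and complex IV hands them to oxygen. Complexes I, III and IV pump protons across the membrane, and complex V, the ATP synthase, uses the returning protons to make ATP. Complexes I, III, IV and V also hold subunits coded by mitochondrial DNA, while complex II is coded in the nucleus alone. Of the 13 mitochondrially encoded subunit genes looked for by name, 0 were found among the probe names, so values here concern nuclear genes.

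The probes that carry the results are 60-base sequences, with positions as the files list them in build mm7. Positions are those of the probe, and exons and UTRs were not annotated here. The first set shows how probes of 1 gene overlap, with the stretch shared by both probes of the Ndufa11 and Ndufa12 pairs in capitals. The Ndufa11 probes lie on the plus strand at chr17:54928975-54929034 and chr17:54928965-54929024 and share 50 bases. The Cox7a2 probes lie on the minus strand at chr9:79831804-79831863 and chr9:79831792-79831851 and share 48 bases. Of the 3 Ndufa12 probes, those at chr10:93758942-93759001 and chr10:93758922-93758981 on the plus strand share 40 bases.
Ndufa11, probe A_51_P279854: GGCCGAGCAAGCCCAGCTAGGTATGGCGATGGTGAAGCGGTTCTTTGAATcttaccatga
Ndufa11, probe A_52_P13436: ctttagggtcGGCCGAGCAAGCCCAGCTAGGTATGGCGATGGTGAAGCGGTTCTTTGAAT
Ndufa12, probe A_51_P458538: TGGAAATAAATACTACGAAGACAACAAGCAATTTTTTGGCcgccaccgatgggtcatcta
Ndufa12, probe A_51_P458540: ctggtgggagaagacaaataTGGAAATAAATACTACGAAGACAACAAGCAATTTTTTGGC

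The second set holds probes with no such overlap, for the highest and lowest genes of complex IV, for the gene with the smallest unadjusted p between the genotypes and for the pair of Ndufa3 probes that read unlike each other. Ndufa3 is at chr7:3240804-3240863 and chr7:3242389-3242448 on the plus strand, Cox6b1 at chr7:27565779-27567275 on the minus strand, Cox4i1 at chr8:119308998-119309057 on the plus strand and Ndufv2 at chr17:64306861-64307002 on the minus strand. The listed spans of the Cox6b1 and Ndufv2 probes are longer than the probes themselves.
Ndufa3, probe A_51_P431772: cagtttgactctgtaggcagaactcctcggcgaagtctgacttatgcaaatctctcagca
Ndufa3, probe A_52_P69702: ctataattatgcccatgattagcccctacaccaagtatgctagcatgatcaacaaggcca
Cox6b1, probe A_51_P448032: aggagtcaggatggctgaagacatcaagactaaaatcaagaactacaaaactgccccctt
Cox4i1, probe A_51_P165435: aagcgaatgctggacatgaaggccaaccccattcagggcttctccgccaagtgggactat
Ndufv2, probe A_51_P261470: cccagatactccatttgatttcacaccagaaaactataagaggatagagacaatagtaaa

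Null mouse 1 stood apart from the other 3 mice before any comparison of members. Its median background-subtracted red signal was 20.5, against 55.1 to 90.1 in the others, while the pool channel was 24.2 to 24.9 on the 4 arrays. The 11 heat shock probes had a median log2 ratio of 3.66 there, against -0.22 to 0.31 in the others, and the 6 prostate secretory probes had -1.27, against -0.20 to 0.34. The Rb1 readings did not separate the genotypes, and Trp53 is conditional alike in all 4 mice. The 1 Rb1 probe past the filter had log2 ratios of -0.65 and -0.24 in mutant mice, against 0.09 and -0.87 in null mice. The labels do not say whether it lies in the deleted part. The markers Ndufa1, Uqcrb and Cox5a each had at least 1 probe above background in every mouse, so the tissue expressed the module.

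No member passed the threshold in any comparison. With limma and Benjamini-Hochberg adjustment over all probes, the smallest adjusted p among members was 0.984 for mutant against null, 0.453 for mutant against pool, 0.473 for null against pool and 0.194 for all 4 mice against pool. The share of all probes called at an adjusted p under 0.05 was 0%, 0% and 0% in the first 3 comparisons and 0.0121% in the last, where 3 probes were called and none was a member. What follows therefore describes values and counts. Each SE given is the moderated one from limma, not the SE of the printed values alone.

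Most members lay somewhat above the pool in both mutant mice and in null mouse 2, but not in null mouse 1. The members' median log2 ratio was 0.22 and 0.13 in mutant mice 1 and 2, against -0.01 and 0.14 in null mice 1 and 2. Over all probes tested these medians were 0.03, 0.02, -0.01 and 0.01. By mouse, 74 and 68 members lay above 0 in mutant mice 1 and 2, against 52 and 75 in null mice 1 and 2, where 53.6%, 54.4%, 49.3% and 52.6% of all probes did. Both mutant mice lay above the pool at 54 members (51.4%) and below it at 17 (16.2%), against 37.2% and 29.3% of all probes. Both null mice lay above it at 48 (45.7%) and below it at 26 (24.8%), against 29.2% and 27.3% of all probes. In all 4 mice 39 members (37.1%) lay above the pool, against 16.7% of all probes, and 10 (9.52%) lay below it, against 14.9% of all probes. Members are bright, and among the 3978 probes at least as bright as the members' lower quartile 16.0% lay above and 19.0% below in all 4 mice. Without null mouse 1, the other 3 mice put 51 members (48.6%) above the pool, against 28.1% of all probes, and 11 (10.5%) below it, against 22.2%.

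By unadjusted p in limma, 34 members had p under 0.05 with a positive mean over the 4 mice, and 9.32% of all probes did. Another 4 had a negative mean, where 8.28% of all probes did. Among the 3978 bright probes these shares were 11.6% and 12.6%. For mutant against pool, 30 members had such a p with a positive mean and 3 with a negative one, where 6.27% and 4.35% of all probes did. How far those counts rest on 1 mouse cannot be read from leaving it out, since 1 mutant array then remains. The members' median against the pool was 0.22 in mutant mouse 1 and 0.13 in mutant mouse 2. With Agilent's processed signals the counts were 14 and 1, and with plain background subtraction 16 and 3. For null against pool the members were 9 and 4, where 4.84% and 5.37% of all probes were. They were 4 and 2 with Agilent's processed signals and 5 and 2 with plain background subtraction. The null mice differed here too, with a members' median of -0.01 in null mouse 1 and 0.14 in null mouse 2. The 34 probes over all 4 mice stood for 25 genes. They came to 19 of 49 probes in complex I, 0 of 5 in II, 2 of 10 in III, 7 of 17 in IV and 6 of 24 in V. The positive count over all 4 mice was 16 without mutant mouse 1, 26 without mutant mouse 2, 22 without null mouse 2 and 34 without null mouse 1. It was 33 over subunits alone, 24 with Agilent's processed signals, 23 with plain background subtraction and 23 with only the brightest probe of each gene. The count also rests on the loess step. Each array was centred instead on the median of its non-control spots, dim ones included. The median of all probes tested then moved to 0.37 and that of members to 0.93. In limma, 56 members and 4250 of all probes tested then had an adjusted p under 0.05.

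**Figure D1:**
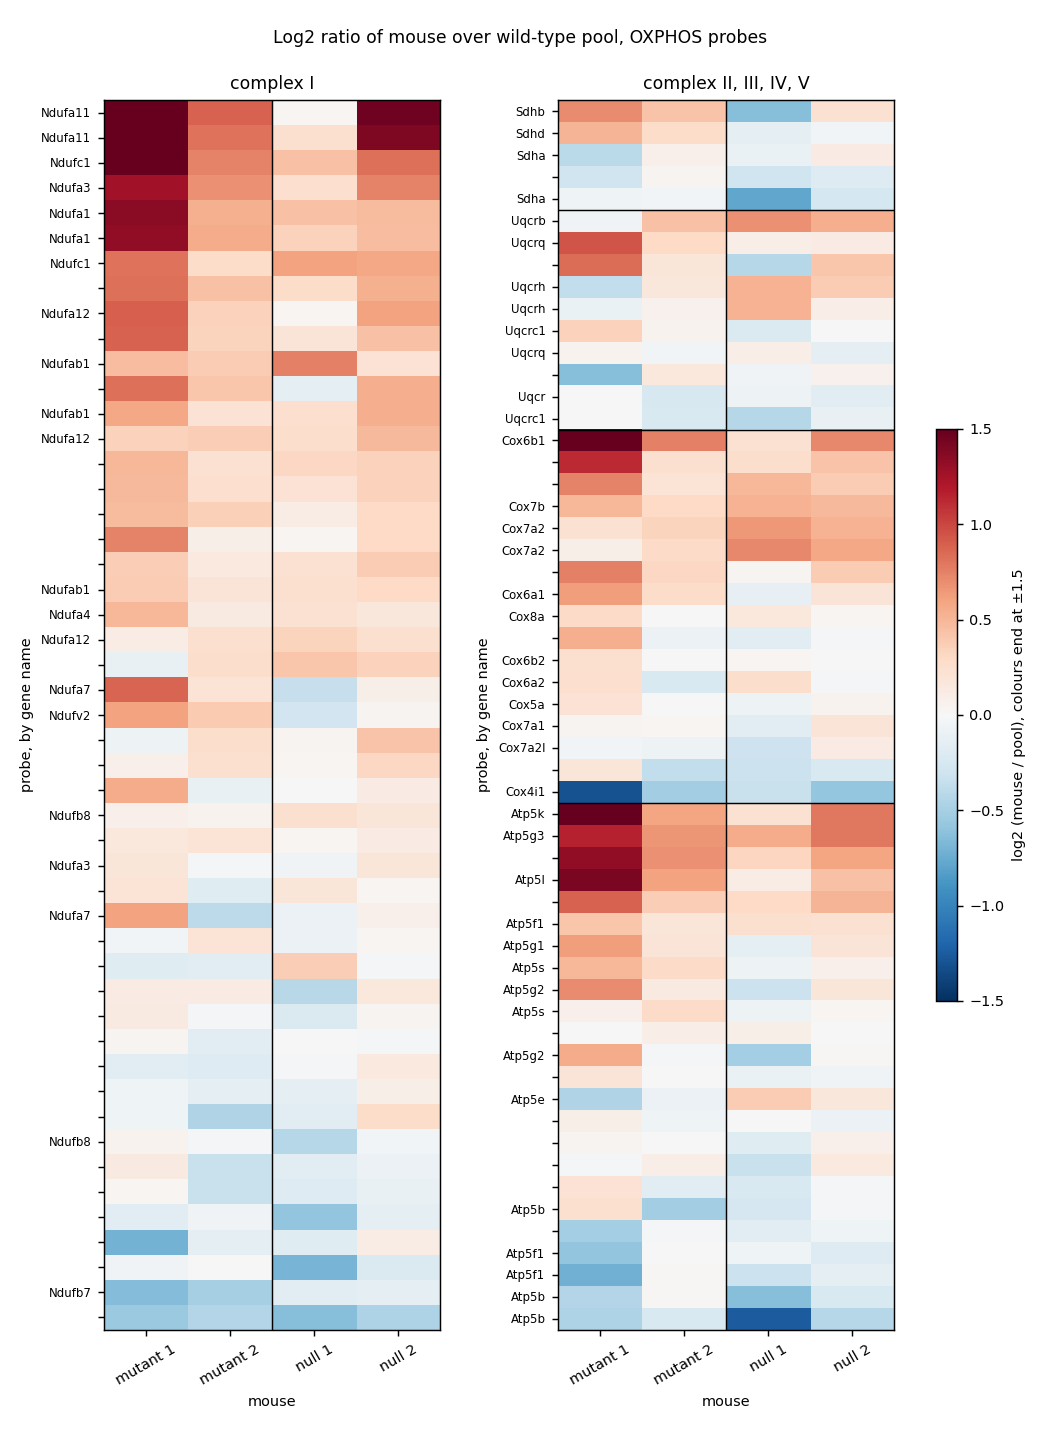
Log2 ratio of each mouse over the wild-type pool for the 105 members past the filter, 1 row per probe, sorted within each complex by the mean over the 4 mice, with colours ending at ±1.5 and gene names at the rows described in the text. Red rows at the top of complexes I, IV and V are above the pool in most or all mice, and mutant mouse 1 has the deepest colours.

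Mutant mouse 1 had the widest spread among members. It was the highest of the 4 mice for 60 members (57.1%), against 28.6% of all probes, and null mouse 1 was the lowest for 58 (55.2%), against 37.6%. The SD of the members' log2 ratios was 0.64 and 0.30 in the mutant mice and 0.35 and 0.33 in the null mice, against 0.44, 0.29, 0.54 and 0.32 over all probes. Mutant mouse 1 was thus wider among members than among all probes, and null mouse 1 narrower.

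Between the genotypes the members' median difference, mutant minus null, was 0.11 on the log2 scale, against 0.02 over all probes. Unadjusted p in limma was under 0.05 for 2 members higher in mutant, where 1.2% of all probes were, and for 0 lower, where 0.99% of all probes were. The log2 ratios of both mutant mice exceeded those of both null mice at 21 members (20.0%), against 16.8% of all probes. The reverse held at 11 members (10.5%), against 13.6%. Both shares are near the background. The median was 0.016 without mutant mouse 1, 0.20 without mutant mouse 2, 0.05 without null mouse 1 and 0.18 without null mouse 2. An exact permutation test of 2 against 2 mice cannot go below p = 0.333.

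**Figure D2:**
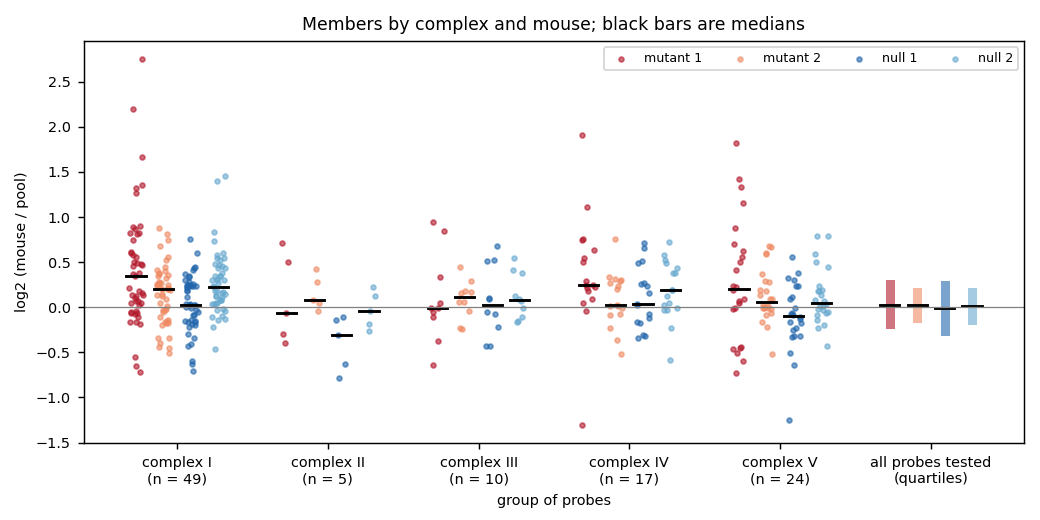
Log2 ratio over the pool by complex and mouse, 1 point per probe with black bars at the medians, and the quartiles of all 24850 probes at the right. Complex I medians are 0.34 and 0.20 in mutant mice, against 0.03 and 0.22 in null mice, and in complex II all 5 probes of null mouse 1 lie below 0.

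Complex I supplied 49 of the 105 probes, for 37 genes. Its median was 0.34 and 0.20 in mutant mice 1 and 2, against 0.03 and 0.22 in null mice 1 and 2, and 24 of the 49 probes lay above the pool in all 4 mice. Ndufa11, an accessory subunit of the membrane arm, had the highest mean of all members. Its probe A_51_P279854 had log2 ratios of 2.75 and 0.88 in mutant mice, against 0.03 and 1.46 in null mice. Probe A_52_P13436, which shares 50 bases with it, had 2.20 and 0.81 in mutant mice, against 0.24 and 1.40 in null mice. The genotypes overlap at both, since null mouse 2 lies between the mutant mice. The mean over the 4 mice was 1.28 ± 0.38 and 1.16 ± 0.30 (SE, n = 4), with adjusted p of 0.230 and 0.213 in limma.

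Ndufa1, a small membrane-arm subunit coded on the X chromosome and a marker of the module, had 2 probes that read almost alike. One had 1.32 and 0.56 in mutant mice, against 0.35 and 0.46 in null mice, and the other 1.35 and 0.53 in mutant mice, against 0.44 and 0.47 in null mice. Both mutant mice lay above both null mice, with a mutant-minus-null difference of 0.54 ± 0.30 and 0.49 ± 0.31 (SE, n = 2 each) and an adjusted p of 0.984 in limma at each.

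Ndufv2, an iron-sulphur subunit of the NADH-binding module, had the smallest unadjusted p of all members between the genotypes, 0.0320 in limma with an adjusted p of 0.984. It had 0.61 and 0.40 in mutant mice, against -0.29 and 0.04 in null mice, so mutant minus null was 0.63 ± 0.21 (SE, n = 2 each). Ndufa7, an accessory subunit, had 0.87 and 0.20 in mutant mice, against -0.34 and 0.09 in null mice at probe A_51_P263756. Its other probe, A_52_P347591, had 0.61 and -0.40 in mutant mice, against -0.09 and 0.08 in null mice, so only the first put both mutant mice above both null mice.

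Ndufb7, a subunit on the intermembrane-space side, lay below the pool in all 4 mice. It had -0.65 and -0.50 in mutant mice, against -0.16 and -0.14 in null mice, so mutant minus null was -0.43 ± 0.18 (SE, n = 2 each, adjusted p = 0.984 in limma). With median centring in place of loess, Ndufb7 averaged 0.53, where the median of all probes moved to 0.37.

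Complex II, with 5 probes for all 4 genes past the filter, was the complex with no probe above the pool in all 4 mice. Its median was -0.07 and 0.08 in mutant mice, against -0.30 and -0.04 in null mice, and null mouse 1 was below 0 at all 5 probes. Sdhb, the iron-sulphur subunit, had 0.71 and 0.43 in mutant mice, against -0.63 and 0.23 in null mice, so mutant minus null was 0.77 ± 0.33 (SE, n = 2 each). Sdhd, a membrane anchor, had 0.51 and 0.28 in mutant mice, against -0.14 and -0.04 in null mice, so mutant minus null was 0.48 ± 0.19 (SE, n = 2 each). Neither overlapped between genotypes, and both had an adjusted p of 0.984 in limma. The lower null value of Sdhb was that of null mouse 1, which was low in prostate secretory and high in heat shock probes. Leaving out 1 mouse at a time moved the Sdhb difference over 0.34 to 1.20. The part of that mouse's tissue state in it was not tested.

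Sdha, the flavoprotein subunit that oxidises succinate, differed between its probes. Probe A_52_P109503 had -0.07 and -0.05 in mutant mice, against -0.78 and -0.26 in null mice, whereas A_51_P410823 had -0.40 and 0.08 in mutant mice, against -0.11 and 0.12 in null mice. The first is the lowest mean of the complex, -0.29, and the second, at -0.08, overlapped between the genotypes. Under median centring the means were 0.38 and 0.55, where the median of all probes moved to 0.37.

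Complex III had 10 probes for 7 genes, of which 1 lay above the pool in all 4 mice and 2 below it. Uqcrb, a small subunit near the ubiquinone pocket and a marker of the module, had -0.05 and 0.44 in mutant mice, against 0.68 and 0.55 in null mice. Both null mice lay above both mutant mice, with a difference of -0.42 ± 0.24 (SE, n = 2 each, adjusted p = 0.984 in limma). Uqcrh, the hinge protein of cytochrome c1, had -0.37 and 0.17 in mutant mice, against 0.52 and 0.38 in null mice at probe A_52_P541875, a difference of -0.55 ± 0.25 (SE, n = 2 each). Under median centring those differences became 0.19 and 0.03, while the median of all probes moved to 0.38. The core protein Uqcrc1 had the lowest mean of the complex, at probe A_51_P109835. It had -0.0050 and -0.23 in mutant mice, against -0.43 and -0.11 in null mice, with the genotypes overlapping.

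Complex IV had 17 probes for 15 genes past the filter, with 8 above the pool in all 4 mice. Cox6b1, a subunit on the intermembrane-space side, had 1.91 and 0.76 in mutant mice, against 0.23 and 0.73 in null mice. The genotypes did not overlap, but mutant mouse 2 and null mouse 2 nearly met, and the difference was 0.86 ± 0.43 (SE, n = 2 each, adjusted p = 0.984 in limma). Its mean was the highest of complex IV, 0.91 ± 0.22 (SE, n = 4). Cox5a, a nuclear-coded subunit and marker of the module, had 0.21 and -0.01 in mutant mice, against -0.07 and 0.05 in null mice, close to the pool in all 4.

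Cox4i1, the common isoform of the subunit that binds ATP as a regulator, had the lowest mean of all members. It had -1.31 and -0.52 in mutant mice, against -0.34 and -0.58 in null mice, below the pool in each, and the genotypes overlapped. The mean was -0.69 ± 0.16 (SE, n = 4), with an adjusted p of 0.204 in limma. With median centring it was 0.33, against a median of 0.37 over all probes. Cox4i2, its isoform known from lung, was not well above background on any array.

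The other paired isoforms of complex IV differ in the tissues where they are known. Cox6a1, the liver-type isoform, had 0.63 and 0.27 in mutant mice, against -0.12 and 0.19 in null mice. Cox6a2, the heart and muscle isoform, had 0.25 and -0.23 in mutant mice, against 0.26 and -0.03 in null mice, with its pool channel above background on 2 of 4 arrays. Cox6b2, known from testis, had 0.24 and 0.01 in mutant mice, against 0.03 and -0.01 in null mice. Only Cox6a1 of these 3 put both mutant mice above both null mice, at an adjusted p of 0.984 in limma.

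Cox7a2, the widely expressed isoform, lay above the pool in all 4 mice and was higher in both null mice at both probes. Probe A_52_P37894 had 0.09 and 0.29 in mutant mice, against 0.72 and 0.58 in null mice. Probe A_51_P319031, with 48 bases in common, had 0.23 and 0.34 in mutant mice, against 0.65 and 0.53 in null mice. The differences were -0.46 ± 0.19 and -0.31 ± 0.18 (SE, n = 2 each, adjusted p = 0.984 in limma), and under median centring they were 0.16 and 0.31, both below the median of 0.38 over all probes there.

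Cox7a1, the muscle isoform, had 0.04 and 0.03 in mutant mice, against -0.17 and 0.19 in null mice. Cox7a2l, linked to supercomplex assembly, had -0.05 and -0.08 in mutant mice, against -0.31 and 0.12 in null mice. Both overlapped between the genotypes. Cox7b had 0.50 and 0.30 in mutant mice, against 0.52 and 0.49 in null mice, and Cox8a had 0.29 and 0.01 in mutant mice, against 0.16 and 0.03 in null mice. Cox8b and Cox8c, known from muscle and testis, were not well above background on any array. No probe name under the rule stood for Cox7b2 or Ndufa4l2, and Ndufa4, now assigned to complex IV, had 0.50 and 0.14 in mutant mice, against 0.23 and 0.17 in null mice.

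Complex V had 24 probes for 16 genes, with 6 above the pool in all 4 mice and 3 below it. Atp5k, the e subunit that helps the enzyme form dimers, had the highest mean of the complex. It had 1.82 and 0.60 in mutant mice, against 0.23 and 0.79 in null mice, so the genotypes overlapped, and its mean was 0.86 ± 0.23 (SE, n = 4, adjusted p = 0.217 in limma). Atp5l, the g subunit beside it in the membrane part, had 1.42 and 0.60 in mutant mice, against 0.12 and 0.44 in null mice. There both mutant mice exceeded both null mice, with a difference of 0.73 ± 0.33 (SE, n = 2 each, adjusted p = 0.984 in limma).

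Atp5g1, Atp5g2 and Atp5g3 code for the same mature c subunit of the proton-turning ring. Atp5g3 had 1.15 and 0.67 in mutant mice, against 0.56 and 0.79 in null mice. It had the smallest unadjusted p of all members over the 4 mice, with a mean of 0.79 ± 0.12 (SE, n = 4) and an adjusted p of 0.194 in limma. Atp5g1 had 0.63 and 0.19 in mutant mice, against -0.13 and 0.19 in null mice. Atp5g2 had 0.70 and 0.13 in mutant mice, against -0.32 and 0.18 in null mice at one probe, and 0.56 and -0.02 in mutant mice, against -0.51 and 0.01 in null mice at the other. Only Atp5g3 of the 3 genes lay above the pool in all 4 mice.

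Atp5e, the epsilon subunit of the central stalk, had -0.45 and -0.09 in mutant mice, against 0.38 and 0.18 in null mice, so mutant minus null was -0.55 ± 0.22 (SE, n = 2 each, adjusted p = 0.984 in limma). The genotypes lay on opposite sides of the pool, and median centring gave a difference of 0.04, against a median of 0.38 over all probes. Atp5s, coupling factor B rather than a subunit, had 0.50 and 0.29 in mutant mice, against -0.08 and 0.08 in null mice at probe A_52_P195798. Atp5b, the catalytic beta subunit, had the lowest mean of the complex at probe A_52_P553841, with -0.46 and -0.22 in mutant mice, against -1.25 and -0.42 in null mice. Its mean was -0.59 ± 0.16 (SE, n = 4, adjusted p = 0.220 in limma) and was 0.08 under median centring, against a median of 0.37 over all probes.

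**Figure D3:**
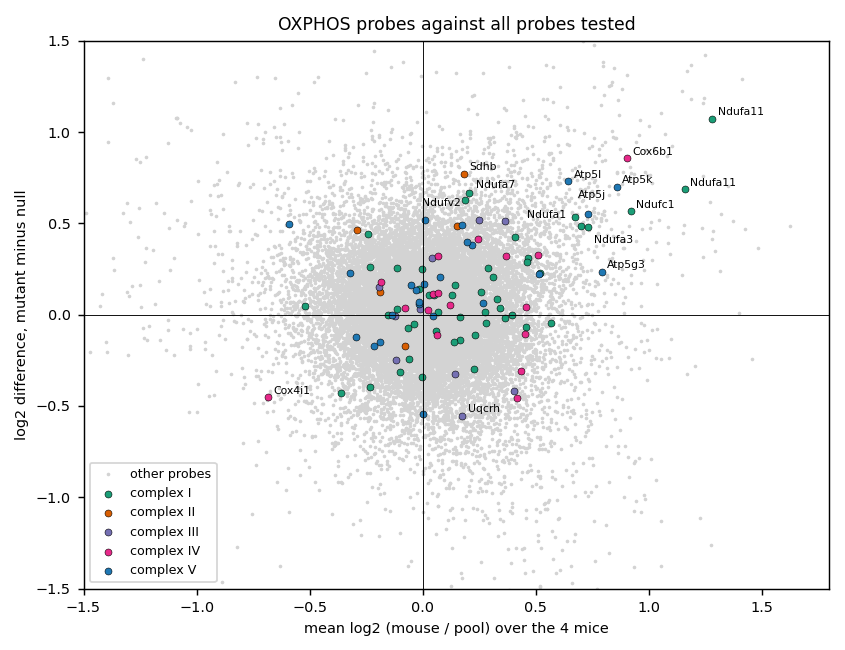
Mean log2 ratio over the 4 mice (x axis) against the mutant-minus-null log2 difference (y axis) for the members, coloured by complex, over the other probes in grey, 94 of which fall outside the axes. Ndufa11, Cox6b1, Atp5k, Ndufc1 and Atp5l lie to the upper right and Cox4i1 to the lower left, while most members lie inside the grey cloud.

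Genes with several probes show how far 1 gene's readings can differ. Among probes well above background in both channels on all 4 arrays, 19 genes had several, and at 9 of them the probes lay more than 0.5 apart on at least 1 array. The widest gap there was 1.00, for Atp5b in null mouse 1, whose 3 probes had -0.64, -0.25 and -1.25. With the dimmer probes past the filter the counts were 21 and 11. Atp5f1, the b subunit of the stator, had -0.59, -0.73 and 0.41 in mutant mouse 1, and the third probe, A_52_P631514, had a pool channel that was not well above background on any array. That probe's mean signal in the mice was 1.20-fold its own dim pool signal, a value open to dye bias. The gap of 1.14 to its partners is thus not a measured one. For Ndufa3 the gap of 1.08 in the same mouse rests on such a probe too. Probe A_52_P69702 had 1.26 and 0.68 in mutant mice, against 0.25 and 0.74 in null mice, whereas A_51_P431772 had 0.18 and -0.03 in mutant mice, against -0.05 and 0.18 in null mice. The second also had a pool channel not well above background on any array, and its mouse channel was above background on 3 of 4. With a pool signal this dim its ratios set no bound, and 2 of the 4 mice lay above the pool.

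Probes that share most of their bases were not always closer. Ndufa11's pair, with 50 bases in common, differed by up to 0.56, and the Cox7a2 pair, with 48, by up to 0.14. The 2 overlapping Ndufa12 probes had 0.34 and 0.90 in mutant mouse 1 and 0.26 and 0.03 in null mouse 1. The third Ndufa12 probe had 0.11 and 0.25 in mutant mice, against 0.34 and 0.23 in null mice. Ndufc1, a membrane-arm subunit, had 1.66 and 0.74 in mutant mice, against 0.44 and 0.83 in null mice at one probe, and 0.82 and 0.28 in mutant mice, against 0.60 and 0.58 in null mice at the other. Both Ndufc1 probes lay above the pool in all 4 mice.

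Uqcrq, a small subunit of complex III, had 0.95 and 0.30 in mutant mice, against 0.09 and 0.12 in null mice at probe A_52_P370484, and 0.05 and -0.05 in mutant mice, against 0.10 and -0.15 in null mice at A_52_P396522. For Ndufb8 and Ndufab1 the widest gaps were 0.68 and 0.52, each in null mouse 1. Those for Sdha and Ndufa7 were 0.68 and 0.60. Ndufab1 is the mitochondrial acyl carrier protein and Ndufb8 a membrane-arm subunit.

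**Figure D4:**
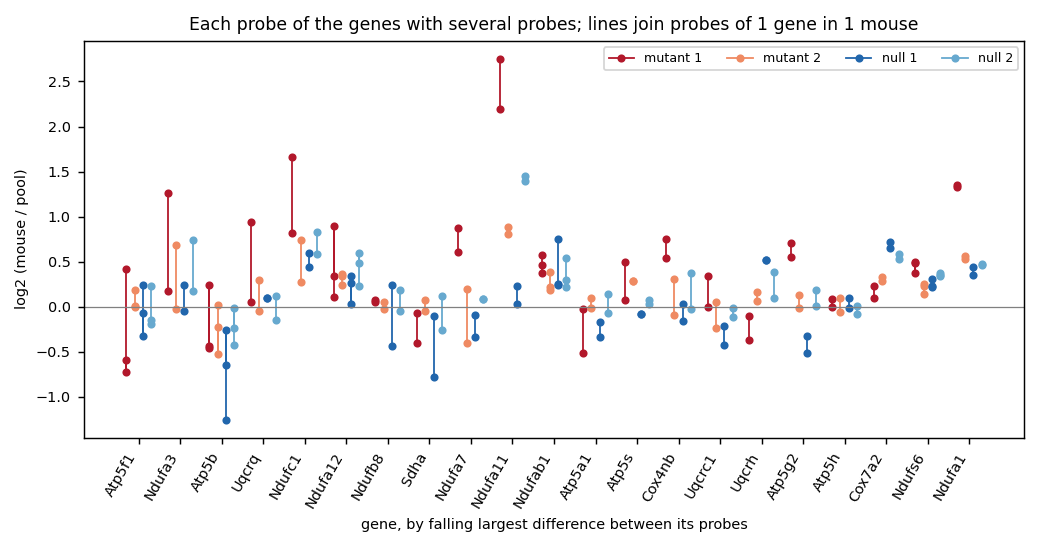
Log2 ratio over the pool for each probe of the 21 genes with several probes past the filter, with lines joining probes of 1 gene in 1 mouse, ordered by the largest gap. The gap runs down to 0.09 for Ndufa1, and the leftmost genes, Atp5f1 at 1.14 and Ndufa3 at 1.08, each include a probe whose pool channel was not well above background.

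Promoters were read because members of the module are known targets of the factors NRF1, GABP (an ETS factor) and YY1. Of the 82 genes, 67 matched the RefSeq table of GRCm38.p6, giving 72 windows of 250 bases before and 50 after the start. The letters GCGCATGCG (NRF1) were in 11.1% of members' windows, against 1.75% of all 32851 windows, on either strand. CCGGAAG (ETS) was in 23.6% against 8.86%, AAGATGGC (YY1) in 13.9% against 2.75%, and CCAAT (NFY) in 40.3% against 37.4%. At least 1 of the first 3 motifs was in 41.7% against 12.5%. A match is a description of letters, not a site. The mean log2 ratio over the 4 mice had a median of 0.20 for the 8 genes with the NRF1 letters and 0.13 for the 58 without. For ETS it was 0.15 for 17 genes and 0.14 for 49, for YY1 it was 0.27 for 10 and 0.13 for 56, and for NFY it was 0.16 for 28 and 0.11 for 38. The genes with the NRF1 letters include Uqcr11 at -0.12 and Uqcrc1 at -0.08, below the pool.

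The promoters of the highest members of complexes I and V are shown because both hold the NRF1 letters, which read the same on both strands here and overlap. Those of Sdhb and Cox6b1, the highest of complexes II and IV, do not hold them. Capitals mark the NRF1 and ETS letters. The Ndufa11 window is chr17:56717512-56717811 on the plus strand and the Atp5k window chr5:108434350-108434649 on the minus strand, in GRCm38.p6.
Ndufa11 promoter: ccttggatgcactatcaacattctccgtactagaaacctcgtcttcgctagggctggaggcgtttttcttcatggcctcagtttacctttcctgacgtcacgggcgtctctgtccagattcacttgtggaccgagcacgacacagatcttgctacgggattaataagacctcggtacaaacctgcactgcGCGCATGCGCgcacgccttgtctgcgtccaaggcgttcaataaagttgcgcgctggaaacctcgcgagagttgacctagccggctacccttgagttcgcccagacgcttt
Atp5k promoter: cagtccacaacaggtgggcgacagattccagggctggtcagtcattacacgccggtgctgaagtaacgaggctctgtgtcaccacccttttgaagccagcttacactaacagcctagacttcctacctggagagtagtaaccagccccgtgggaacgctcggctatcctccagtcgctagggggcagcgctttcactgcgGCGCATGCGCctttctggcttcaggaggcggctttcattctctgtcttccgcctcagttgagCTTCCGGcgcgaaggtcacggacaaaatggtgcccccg

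Other mitochondrial gene lists were set beside the members. None of their probes passed the adjusted threshold in any comparison in limma. Of 123 mitochondrial ribosome probes, 36 lay above the pool in all 4 mice (29.3%) and 10 below (8.13%). Of 33 assembly factor probes, 12 lay above (36.4%) and 5 below (15.2%). Over these 33 probes the median log2 ratio over the 4 mice was 0.06. Cox17 and Cox16 were chosen from this list after their values were seen, and the 5 probes below the pool are not printed. Cox17, a copper chaperone for complex IV, had 3.25 and 2.02 in mutant mice, against 0.97 and 2.40 in null mice at one probe. Its other probe had 0.44 and 0.21 in mutant mice, against 0.26 and 0.24 in null mice. Cox16, which aids complex IV assembly, had 4 probes, all above the pool in all 4 mice.

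The tricarboxylic acid cycle had 5 of 21 probes above (23.8%) and 6 below (28.6%), where 16.7% and 14.9% of all probes did, and its difference from the members was not tested. The 23 probes of carriers and further subunits had 2 above (8.7%) and 5 below (21.7%). The adenine nucleotide carrier Slc25a5 had 0.81 and 0.61 in mutant mice, against -0.13 and -0.06 in null mice, while Slc25a4 stayed between -0.33 and 0.17 over its 2 probes. The regulators of mitochondrial genes had 9 of 30 probes above and 3 below, with a median mutant-minus-null difference of -0.04. Ppargc1a, a coactivator of mitochondrial genes, had 0.06 and 0.22 in mutant mice, against -0.41 and 0.22 in null mice at one probe. Gabpa, a subunit of GABP, had 0.48 and 0.52 in mutant mice, against 0.42 and 0.29 in null mice at probe A_52_P126238. Any link from Gabpa to members with the ETS letters was not tested. Values of other regulators, Nrf1, Tfam and Esrra among them, are not printed here.

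**Figure D5:**
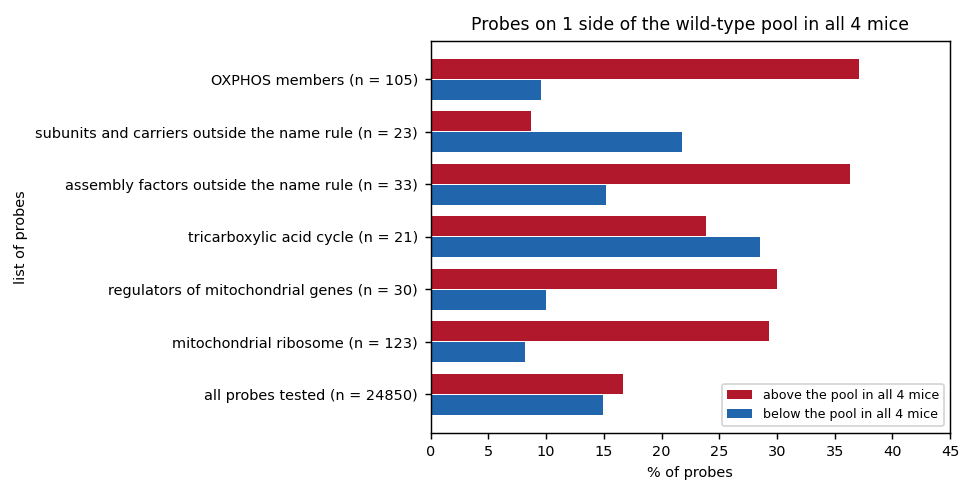
Percentage of probes above (red) and below (blue) the wild-type pool in all 4 mice, for members, for 5 other mitochondrial lists and for all probes tested. Members stand at 37.1% above and 9.52% below, and all probes at 16.7% and 14.9%.

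Markers of other cells moved with the mice. The 7 adipocyte probes had a median of 0.74 and 1.46 in mutant mice, against -1.29 and 1.15 in null mice. Of the 7 macrophage probes, the median was lowest in null mouse 1 as well, at -0.34, and was 0.70 or more in each of the other 3 mice. Of the 7 genes of the adipocyte list 5 passed the filter, and the brown fat marker Ucp1 was not well above background on any array. The summed red signal of the adipocyte list was 36239 and 61426 in mutant mice, against 1246 and 36929 in null mice. The seminal vesicle list, of which 5 of 6 genes passed, had a median of -4.13 and -0.79 in mutant mice, against -5.29 and -3.72 in null mice, below the pool in all 4. The 12 skeletal muscle probes had a median of -0.06 and -0.12 in mutant mice, against -0.12 and -0.21 in null mice, and 2 of the 4 heart muscle genes, Nppa and Tnnt2, passed the filter, with a median of -0.33 and -1.02 in mutant mice, against 0.35 and -0.26 in null mice. Smooth muscle, with 10 probes, had a median of -0.26 and -0.47 in mutant mice, against 0.23 and -0.07 in null mice. For luminal epithelium the 5 probes had 0.06 and -0.16 in mutant mice, against 1.11 and -0.11 in null mice, and for basal epithelium the 4 probes had -0.27 and -0.37 in mutant mice, against 1.06 and -0.05 in null mice. Of 8 sperm genes, 3 (Prm1, Prm2 and Tnp1) passed the filter, with a median of 0.29 and 0.14 in mutant mice, against 0.14 and -0.0018 in null mice, while Ldhc, Akap4, Pgk2 and Odf1 were not well above background on any array. The part of these cell types in the members' values was not tested.

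The authors' deposited table lists group means as linear ratios to the pool and holds 67 rows for members, for 54 genes. Of these rows, 50 (74.6%) are higher in mutant in the authors' deposited table, against 51.7% of all 26174 rows, and no ratio between the groups is under 1.13. In the authors' deposited table Ndufa11 has a mean ratio of 4.65 in mutant and 1.94 in null, and Cox6b1 2.66 in mutant and 1.34 in null. Cox4i1 has 0.481 in mutant and 0.578 in null there, in the authors' deposited table. These means come from the same arrays as the values above and hold no p-value.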

How the data were processed

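The 4 arrays set 2 mutant and 2 null mice, each in red, against 1 wild-type pool in green. Per the file headers, the deposited scanner files hold spot brightness as intensity, from Agilent Feature Extraction 9.5.1.1. Version 8.5 is named in the submitters' processing notes. The deposited log10 ratio is red over green processed signal on the log10 scale, per the file headers. Group means in the authors' deposited table are a linear ratio without p-values, and how they were averaged is not given in the sources used here.

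Background medians were used to correct mean signals by normexp (offset 50), followed by loess within arrays in limma 3.58.1 under R 4.3.3, with control spots at weight 0. Spots with an outlier flag were dropped, and the 66 probes that held one were not tested. The filter asked for the mouse channel well above background in both mice of 1 genotype, or else for the pool on every array. No spot was saturated. Log2 ratios were fitted with lmFit and eBayes, with a mean per genotype, for mutant against null, each genotype against the pool, and all 4 mice against the pool. The SEs printed are moderated by eBayes, which draws each probe's own spread toward that of all probes tested. They can thus be larger or smaller than the SE of a probe's printed values. P-values were adjusted over 24850 probes by Benjamini-Hochberg and called under 0.05. The pool is 1 control sample, so the variation among wild-type mice is absent from its tests. The labels name biological replicates, and the number of arrays limits the precision. All 4 arrays lay on 1 slide and 1 scan, so no batch could be separated.

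Names were updated through the RefSeq table of GRCm38.p6: 22951 probes matched by accession, 6659 by current and 3109 by older symbol, and 8455 kept the name in the file. Members named are the 3 markers, the extremes and the 3 smallest p per complex, the paralogous isoforms, and genes whose probes differ by over 0.5. Cox17, Cox16, Slc25a5, Slc25a4, Ppargc1a and Gabpa were chosen after their values were seen. One member that the rule names is not reported here. Members and lists were chosen with earlier results of these data known. Alternatives covered background correction, scaling, the filter, the probe per gene, the variance model and each mouse left out. The fit was tested on simulated data.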

Additional observations from a re-analysis of the deposited data

Results flagged for a closer look

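At 3 of 105 members (2.86%), both mutant mice lay on one side of the pool and both null mice on the other, which held at 7.05% of all probes. Sdhd, a membrane anchor of complex II, was above the pool in both mutant mice and below it in both null mice, with a mutant-minus-null log2 difference of 0.48 ± 0.19 (SE, n = 2 each). Uqcrc1, a core protein of complex III, did the same at probe A_51_P109828, with 0.34 and 0.06 in mutant mice, -0.22 and -0.01 in null mice and a difference of 0.31 ± 0.20. Atp5e, the epsilon subunit of the ATP synthase, ran the other way, with a difference of -0.55 ± 0.22. The adjusted p was 0.984 for each in limma, and the share among members is below that of all probes.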

How the results depend on the processing

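No member was called between genotypes or for either genotype against the pool under any alternative run, and the block on replicate number also left 0 members called between the genotypes with a median of 0.11. The labels do not say whether the replicate numbers pair the mice. The difference between the mutant mice and that between the null mice correlated at 0.0035 over probes, which alone cannot decide it. The exception among all comparisons is median centring in place of loess. It gave 56 members called over all 4 mice, and member medians of 0.71 for mutant against null, 1.27 for mutant against pool, 0.57 for null against pool and 0.93 for all 4 mice, while the median of all probes moved to 0.38, 0.60, 0.14 and 0.37. Leaving out 1 mouse moved the mutant-minus-null median over 0.016 to 0.20, that of mutant against pool over 0.13 to 0.22, that of null against pool over -0.01 to 0.14 and that of all 4 mice over 0.09 to 0.15. Of 2925 values of named members under alternatives, 2693 moved by less than their spread, 204 by more, and 28, all positive, passed the threshold. Among all probes, 3 were called over all 4 mice, against 4250 under median centring, 34 with an intensity trend in eBayes, 36 without null mouse 1 and 324 without null mouse 2. Without null mouse 2, 9 were called between the genotypes and 382 for null against pool, against 0 with all mice. Reading members by current symbol as well was chosen after seeing the data and gave a median of 0.12 over all 4 mice. No slide or scan block was run, since there was 1 of each. Signals near background limit 8 members, which were not tested, and 4 more with a channel below background on some arrays.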
